A study of Mus musculus with 8 samples.

Results

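Hematopoietic stem cells (HSCs) are told apart from other bone marrow cells by the proteins on their surface. The genes of 10 HSC markers, all but the intracellular Fgd5 encoding surface or membrane proteins, are described here across 3 Nras genotypes. The markers were Ly6a, Slamf1, Cd48, Kit, Procr, Esam, Cd34, Tek, Pdzk1ip1 and Fgd5, and every array probe that carries one of these gene names was taken. By name, 9 of the 10 genes had a probe, with 12 probes on 21 spots of each array, out of 41174 non-control probes for 27585 gene names. Esam had no probe of that name, but 1 further probe is named Esam1 in the files, and its accession belongs to Esam in RefSeq. It is described with the others, which makes 13 probes.

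Total RNA of bone marrow HSCs from B6 mice was hybridised to 8 Agilent 1-colour arrays, 1 sample per array. The groups were NrasG12D/G12D (3 arrays), with both endogenous alleles mutant, NrasG12D/+ (3 arrays), with a mutant and a normal allele, and Nras+/+ (2 arrays), the controls. Nras is a small GTPase that relays growth signals, and the G12D form is locked in the active, GTP-bound state. The labels name neither a way of switching the allele on, nor an age, nor a sort gate. They also leave unsaid whether each sample is a separate animal, and the p-values therefore cover the spread between samples, which may be technical.

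As background, mouse HSCs are usually isolated from cells that lack the antigens of mature lineages and carry Kit and Ly6a protein. Within that fraction, Slamf1 protein (CD150) with little Cd48 protein marks the most primitive cells, and Procr, Esam and Tek proteins are further positive markers. Cd34 protein is low or absent on long-term HSCs of adult mice. A surface protein and its mRNA need not follow each other, and an array probe reads only the mRNA.

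Each probe is 60 bases of 1 transcript, and where it lies decides what it can detect. The sequences below are shown because probes of the same gene behaved differently. Capitals mark AATAAA, the common polyadenylation signal. Probes of Slamf1 and Cd48 that carry 60 printed bases are whole; the others are 30-base stretches.

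Slamf1, A_52_P158959: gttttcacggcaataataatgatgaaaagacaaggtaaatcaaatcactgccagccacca
Slamf1, A_52_P550173: ttttagagcctcttatgcttcaaacaacag
Cd48, A_52_P460230: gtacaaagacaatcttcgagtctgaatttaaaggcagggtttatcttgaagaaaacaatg
Cd48, A_51_P362029: ggacaaaggaaaatgtgttactgaacgtct
Kit, A_51_P355906: tgtggtcatgtacgagactgtcaccagtta
Procr, A_51_P382152: aacatcttactaAATAAAagaagttgtctg
Cd34, A_51_P204740: tattctcttctgAATAAAcgtgatgagtga
Ly6a, A_51_P265495: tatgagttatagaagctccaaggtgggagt

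Probe coordinates are those in the scanner files, and their genome build is not stated there. Slamf1 and Cd48 are neighbours on chromosome 1, as members of the SLAM receptor cluster, with 82967 bases between the nearest probes. The first Slamf1 probe lies at 173624677 to 173628995 on the plus strand, a span longer than the probe itself, and the second 7891 bases downstream of it. The Cd48 probes lie 9114 bases apart. The Ly6a probe is on chromosome 15 at 74822378 to 74822437 on the minus strand, the Kit probe on chromosome 5 at 75937959 to 75938018 and the Procr probe on chromosome 2 at 155446650 to 155446709, both on the plus strand. Of the printed stretches, those of Procr and Cd34 hold AATAAA, which stands in 4.78% of the 41174 probes (its reverse complement TTTATT in 4.25%). Whether a probe lies in an exon or a UTR was not analysed here.

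Detection differed sharply among the markers. A probe counts as detected on an array where its spot is flagged well above background, or at least 50% of its spots where it has several. Of the 13 probes, 5 were detected on all 8 arrays, 4 on none and 4 on some. For comparison, 16% of all probes were detected on 8 arrays and 43.3% on none. Ly6a, Slamf1, Esam, Pdzk1ip1 and Fgd5 each had a probe detected on all 8 arrays. Cd48 was detected on 7, Cd34 on 3 and Kit on 1. Procr, the endothelial protein C receptor, and Tek, the angiopoietin receptor Tie2, were detected on 0 of 8 arrays, Tek with both its probes.

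**Figure D1:**
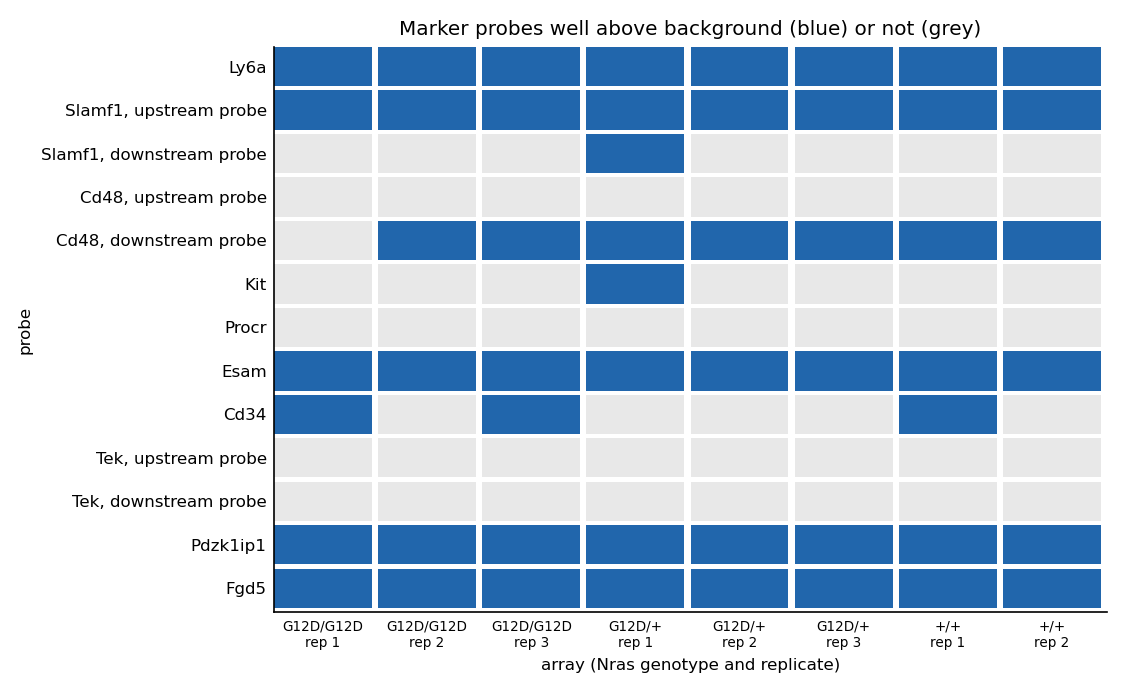
Detection of the 13 marker probes (rows) on the 8 arrays (columns, by Nras genotype and replicate); blue cells are well above background and grey cells are not. The Ly6a, Esam, Pdzk1ip1 and Fgd5 rows are blue throughout, the Procr and Tek rows grey throughout, and Kit is blue only on NrasG12D/+ replicate 1.

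Set against the HSC label, mRNA of the defining markers Ly6a and Slamf1 was detected throughout, that of Slamf1 by its upstream probe only. Kit, which the usual gate requires, was not detected on 7 of 8 arrays. The cause was not tested. Over all gene names, 22.7% were detected on all 8 arrays and 33.9% on none. Of 20 other HSC genes with a probe, 8 were detected on all 8 arrays, among them the integrin Itga2b and endoglin (Eng), and 4 on none. These 20 are surface genes except for the transcription factors Hlf and Mecom. Of 18 antigens of mature lineages, 6 were detected on all 8 arrays, including the T cell genes Cd3e and Cd4 and the B cell gene Ms4a1, although Cd3d and Cd79a were detected on none. The number detected per array was 9 to 11 in NrasG12D/G12D, 11 to 13 in NrasG12D/+ and 9 to 10 in Nras+/+. Endothelial markers, which share Esam and Tek with HSCs, ran from 5 to 8 of 13 in NrasG12D/G12D, 5 to 9 in NrasG12D/+ and 8 to 10 in Nras+/+. Among these 13, Cldn5, Stab2 and Vwf were detected on all 8 arrays, and Cdh5 and Kdr on none. In bulk RNA, fewer cells of a type and less RNA per cell cannot be told apart.

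The arrays differed in sensitivity. The median processed signal ran from 3.09 to 6.75, and genes with a detected probe made up 34.0% to 39.1% in NrasG12D/G12D, 37.0% to 52.0% in NrasG12D/+ and 39.7% to 45.5% in Nras+/+. Across genes, NrasG12D/+ replicate 1 correlated least with the rest, at a mean of 0.557, where the 7 others lay between 0.62 and 0.634. Slide and genotype overlap: slide 1 held both Nras+/+ arrays and NrasG12D/+ replicates 1 and 2, and slide 2 the NrasG12D/G12D arrays and NrasG12D/+ replicate 3. No slide held both NrasG12D/G12D and Nras+/+ arrays, so for that comparison slide and genotype cannot be told apart except through NrasG12D/+.

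Values below are processed signals, an intensity on a linear scale, and their log2 after subtraction of each array's 75th percentile (scaled log2 signal). Levels of different probes are not compared. Changes were tested with limma over 15099 genes, those detected on at least 2 arrays, and adjusted by the Benjamini-Hochberg method. Of the 10 markers 7 were tested, while Kit, Procr and Tek did not reach 2 arrays. No gene passed the adjusted threshold of 0.05 in any comparison (0% of 15099 genes), and so no marker did. At an unadjusted p under 0.05, limma gave 971 genes (6.43%) for NrasG12D/G12D against Nras+/+, 893 (5.91%) between the mutant genotypes and 708 (4.69%) for NrasG12D/+ against Nras+/+. Of the 7 markers, 0, 0 and 1 were among them.

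Ly6a encodes Sca-1, a GPI-anchored protein of the Ly6 family and a defining HSC antigen. Its processed signals were 110, 357 and 110 in NrasG12D/G12D, 107, 129 and 65.6 in NrasG12D/+, and 350 and 274 in Nras+/+. After scaling, they were -1.34, 1.28 and -0.73 in NrasG12D/G12D, -1.73, -1.07 and -0.96 in NrasG12D/+, and 0.87 and 1.25 in Nras+/+. All 3 NrasG12D/+ arrays lay below both Nras+/+ arrays, while NrasG12D/G12D replicate 2 stood at the level of the controls and the other 2 arrays of that genotype lay below both. The log2 change was -2.32 (SE 0.89, 95% interval -4.33 to -0.3) for NrasG12D/+ against Nras+/+, or -2.06 relative to the median of all genes. It did not pass over all genes (limma adjusted p = 0.813, unadjusted p = 0.0289, rank 408 of 15099). In NrasG12D/G12D against Nras+/+ the change was -1.32 (SE 0.89, adjusted p = 0.74). It was -2.1 without NrasG12D/G12D replicate 2, but -0.79 without NrasG12D/G12D replicate 1 and -0.7 in the deposited value table. Within slide 1, NrasG12D/+ against Nras+/+ gave -2.46, and with normexp background correction over all arrays it gave -1.81. Ly6a has near relatives such as Ly6c1 and Ly6i, and whether its probe also binds their transcripts was not tested.

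Esam, an adhesion molecule of cell junctions, followed a similar order. Its processed signals were 329, 372 and 299 in NrasG12D/G12D, 333, 389 and 245 in NrasG12D/+, and 387 and 285 in Nras+/+. The unscaled signals of the groups overlap. After scaling the values were 0.24, 1.34 and 0.72 in NrasG12D/G12D, -0.09, 0.52 and 0.94 in NrasG12D/+, and 1.02 and 1.31 in Nras+/+, so that all NrasG12D/+ arrays lay below both controls only on the scaled values. The change was -0.71 (SE 0.72, limma adjusted p = 0.827) for NrasG12D/+ and -0.4 (SE 0.72, adjusted p = 0.884) for NrasG12D/G12D, each against Nras+/+. Over the 8 arrays the scaled signals of Ly6a and Esam had a Pearson correlation of 0.9, a description of 8 arrays that share scaling and slides.

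**Figure D2:**
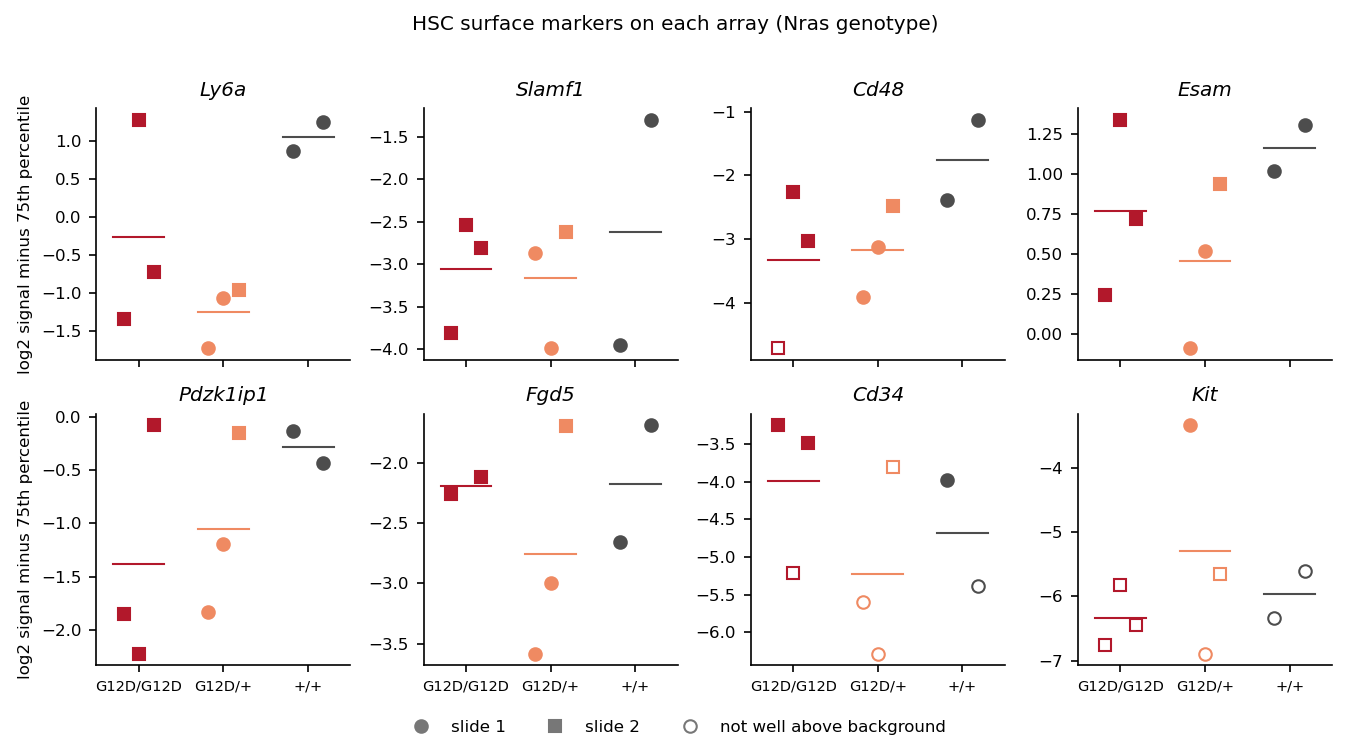
Scaled log2 signals of 8 markers on each array, by Nras genotype; circles are slide 1, squares slide 2, open symbols are not well above background, and lines are group means. The NrasG12D/+ points of Ly6a, Cd48 and Esam lie below both Nras+/+ points, and the Fgd5 panel lacks NrasG12D/G12D replicate 2, whose spot carried an outlier flag.

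Slamf1 and Cd48 encode SLAM family receptors with opposite use in sorting. The Slamf1 probe detected on all arrays had processed signals of 19.8, 25.2 and 26.0 in NrasG12D/G12D, 48.5, 17.0 and 20.8 in NrasG12D/+, and 12.4 and 46.8 in Nras+/+. The Nras+/+ arrays were the lowest and the second highest of the 8, so the controls alone spanned most of the range. The change was -0.43 (SE 0.96, limma adjusted p = 0.904) for NrasG12D/G12D and -0.54 (SE 0.96, adjusted p = 0.892) for NrasG12D/+, each against Nras+/+. Without Nras+/+ replicate 2 these became 0.89 and 0.78, with the sign turned. The downstream Slamf1 probe was detected only on NrasG12D/+ replicate 1, at a processed signal of 15.0, against 2.04 to 7.02 on the other arrays.

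Cd48, a GPI-anchored ligand of Cd244, gave processed signals of 10.6, 30.7 and 22.3 in NrasG12D/G12D, 23.6, 31.1 and 22.9 in NrasG12D/+, and 36.4 and 52.6 in Nras+/+ with its downstream probe. Both Nras+/+ arrays had the highest signals, and NrasG12D/G12D replicate 1 was not well above background. The change was -1.57 (SE 0.93, 95% interval -3.68 to 0.54, limma adjusted p = 0.731) for NrasG12D/G12D and -1.41 (SE 0.93, 95% interval -3.52 to 0.7, adjusted p = 0.813) for NrasG12D/+, each against Nras+/+. With normexp background correction these were -0.51 and -0.64. Without NrasG12D/G12D replicate 1 the first was -0.88, and without Nras+/+ replicate 2 the changes were -0.94 and -0.78. On scaled values the NrasG12D/+ arrays did not overlap with Nras+/+, whereas NrasG12D/G12D replicate 2 (-2.26) lay above Nras+/+ replicate 1 (-2.39). The upstream Cd48 probe was detected on no array, with processed signals of 1.78 to 4.37.

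Pdzk1ip1 encodes MAP17, a small membrane protein, and Fgd5 an intracellular guanine nucleotide exchange factor that serves as an HSC reporter gene. Pdzk1ip1 had processed signals of 76.9, 31.5 and 172 in NrasG12D/G12D, 99.8, 119 and 115 in NrasG12D/+, and 175 and 85.3 in Nras+/+. Its groups overlapped, and the change was -1.11 (SE 0.89, limma adjusted p = 0.759) for NrasG12D/G12D and -0.78 (SE 0.89, adjusted p = 0.84) for NrasG12D/+, each against Nras+/+. Fgd5 had 58.1 and 41.8 in NrasG12D/G12D replicates 1 and 3, 29.6, 33.8 and 39.4 in NrasG12D/+, and 30.3 and 35.6 in Nras+/+. The Fgd5 spot of NrasG12D/G12D replicate 2 read 100 but carried an outlier flag and was left out of the fit. The Fgd5 change against Nras+/+ was -0.02 (SE 0.92, adjusted p = 0.998) for NrasG12D/G12D, 0.53 with the flagged spot kept, and -0.59 (SE 0.84, adjusted p = 0.865) for NrasG12D/+.

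Cd34, a sialomucin, was detected on NrasG12D/G12D replicates 1 and 3 and on Nras+/+ replicate 1. Its processed signals were 29.2, 3.96 and 16.2 in NrasG12D/G12D, 7.30, 3.49 and 9.15 in NrasG12D/+, and 12.1 and 2.76 in Nras+/+. The 2 highest values were both NrasG12D/G12D arrays, but the third array of that genotype was near the bottom. No NrasG12D/+ array and only 2 of the 3 NrasG12D/G12D arrays were well above background. The limma log2 change of NrasG12D/G12D against NrasG12D/+ was 1.24 (SE 0.9, adjusted p = 0.84). Set against the median of all genes it was 1.44. Within slide 2 the change was -0.18, which is 0.19 against that slide's median. Against Nras+/+ the change was 0.7 (SE 1.01, adjusted p = 0.854) for NrasG12D/G12D and -0.55 (SE 1.01, adjusted p = 0.895) for NrasG12D/+.

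Kit, the receptor for stem cell factor, was read by 10 spots of the same probe on each array. On NrasG12D/+ replicate 1 the spots ran from 22.6 to 49.1 with a median of 35.2, and all 10 were well above background. On the other 7 arrays they ran from 1.63 to 7.86, and 0 of 10 were well above background on each. Set against the lowest detected signal of each other array, Kit on NrasG12D/+ replicate 1 was at least 1.29- to 3.29-fold higher.

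**Figure D3:**
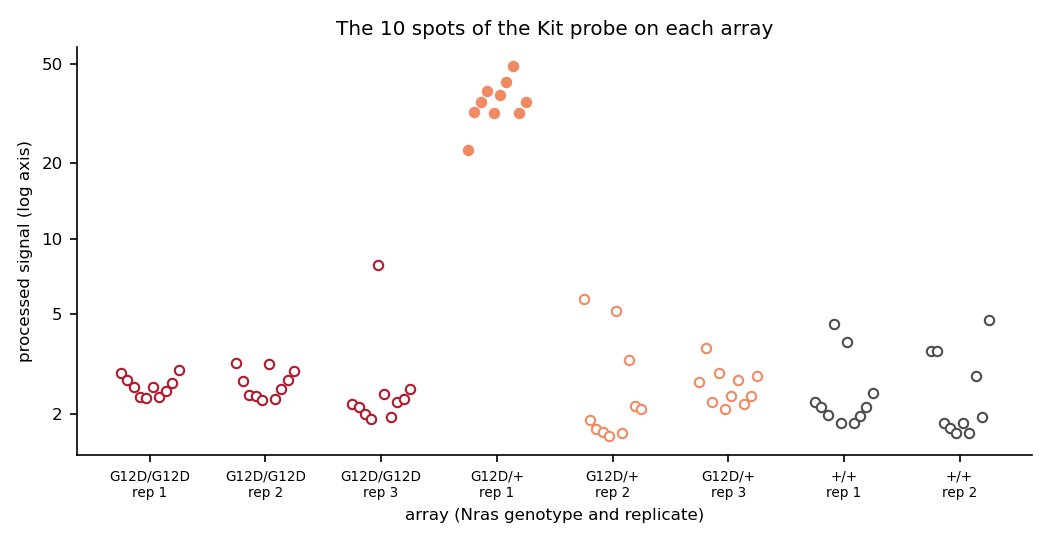
Processed signal (log axis) of the 10 Kit spots on each array, by Nras genotype and replicate; filled points are well above background. The spots of NrasG12D/+ replicate 1 lie between 22.6 and 49.1, all above those of the other arrays, which reach at most 7.86.

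That array detected more probes alone than any other: 1342 probes, 3.26% of all, against 275 to 1259 on the others. Among 132 listed genes with a probe, 6 were detected on it alone (4.55%), where the share over all gene names was 2.93%. Besides Kit these were Cd84, a SLAM receptor, Tie1, a relative of Tek, the HSC transcription factors Hlf and Mecom, and the basophil protease Prss34, all named after their values were seen. On this array the scaled log2 signal was 7.09 for Tie1 and 3.45 for Cd84, against at most -5.92 on the others for each. Mecom stood at -4.84, near the array's lowest detected signal of -5.13. The mast cell and basophil genes Cpa3, Mcpt8, Ms4a2, Gata2 and Hdc were detected on no array. Others of the same list were detected: Tpsb2 on 8 arrays, Fcer1a on 5 and Cma1 on 2, each including NrasG12D/+ replicate 1. Of 12 neutrophil and monocyte genes, 6 were detected on that array and 3 to 6 on the others. Mpo stood there at 7.36 (at most 3.41 elsewhere) and S100a9 at 6.15 (at most -3.64 elsewhere), while S100a8 was detected on 0 arrays.

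Procr and Tek gave no measured level. Procr signals ran from 1.72 to 2.55. The Tek probes, 132314 bases apart on chromosome 4, ran from 2.23 to 6.11 and from 1.88 to 2.74.

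Set side by side, 6 of the 7 tested markers had a lower mean in NrasG12D/G12D than in Nras+/+ and 7 of 7 a lower mean in NrasG12D/+ than in Nras+/+, while 5 of 7 had a higher mean in NrasG12D/G12D than in NrasG12D/+. The first 2 comparisons share the Nras+/+ arrays. Over all genes, 35.6%, 41.8% and 42.3% had a higher mean in these comparisons in the same order, and the median change was -0.44, -0.26 and -0.2. The median change of the markers was -0.43, -0.71 and 0.31, or 0.01, -0.45 and 0.51 relative to all genes. Groups did not overlap for 0 of 7 markers in NrasG12D/G12D against Nras+/+ (28.8% of all genes in either direction, 22.8% lower) and for 0 of 7 between the mutant genotypes (11.6% in either direction, 8.68% lower). In NrasG12D/+ against Nras+/+ 3 of 7, Ly6a, Cd48 and Esam, did not overlap and were lower (16.3% of all genes were lower without overlap, 25.2% in either direction).

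Several of these values differed in fits within a slide or with the slide as a block. The fits within a slide also leave out arrays, so an effect of the slide and variation between single arrays cannot be told apart. For NrasG12D/+ against Nras+/+ within slide 1, all 7 markers again had a lower mean, with Ly6a at -2.46, Cd48 at -1.76, Cd34 at -1.26, Pdzk1ip1 at -1.23, Fgd5 at -1.12, Esam at -0.95 and Slamf1 at -0.81 (lowest limma adjusted p 0.557), where the median of all genes was -0.36. For NrasG12D/G12D against NrasG12D/+ within slide 2, which holds 1 NrasG12D/+ array, Ly6a stood at 0.7, Cd48 at -0.85 and Pdzk1ip1 at -1.23. Slamf1 (-0.43), Esam (-0.17), Cd34 (-0.18) and Fgd5 (-0.49) turned their sign there, where the median of all genes was -0.37. Relative to it, Esam (0.19) and Cd34 (0.19) kept their sign, and Slamf1 (-0.07) and Fgd5 (-0.13) did not. For NrasG12D/G12D against Nras+/+, the fit with the slide as a block gave -1.76 for Ly6a, -2.61 for Cd48, -2.46 for Pdzk1ip1, -1.61 for Fgd5, -1.24 for Slamf1, -1.12 for Esam and, with the sign turned, -1.44 for Cd34. The median of all genes was -0.75 in that fit, and relative to it the values were -1.01 for Ly6a, -1.86 for Cd48, -1.71 for Pdzk1ip1, -0.86 for Fgd5, -0.49 for Slamf1, -0.37 for Esam and -0.69 for Cd34.

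**Figure D4:**
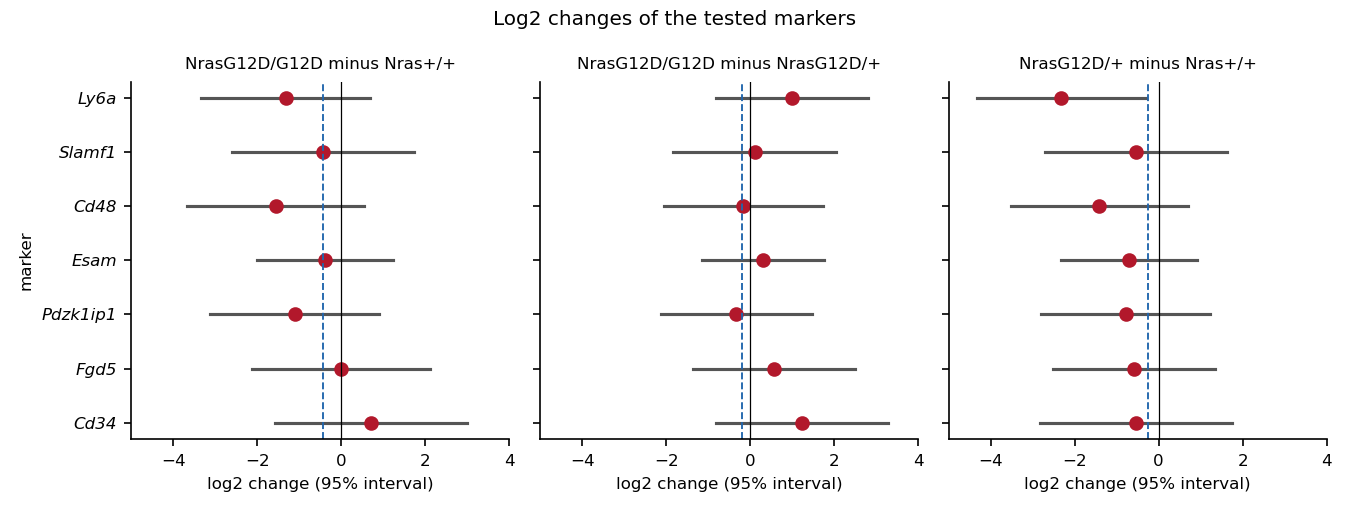
Log2 changes (points) with 95% intervals (bars) of the 7 tested markers in the 3 comparisons; the solid line is 0 and the dashed line the median change of all genes. The interval of Ly6a in NrasG12D/+ minus Nras+/+, -4.33 to -0.3, is the only one of the 21 that leaves out 0.

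Genes related to the markers gave no call either. A lower mean was the common direction over all genes: 35.6% had a higher mean in NrasG12D/G12D than in Nras+/+. The share was 41.8% for NrasG12D/+ against Nras+/+. The counts below are to be read beside these shares. Of 8 tested SLAM family genes, 7 had a lower mean in NrasG12D/G12D than in Nras+/+ and 5 a lower mean in NrasG12D/+ than in Nras+/+, with 0 past the threshold. The lowest unadjusted p among them against Nras+/+ was that of Slamf8 in NrasG12D/G12D, with a log2 change of -1.33 (SE 0.72, limma adjusted p = 0.727). Slamf8 was detected on only 3 arrays, none of them NrasG12D/G12D, so this change involves values near background. Of 7 tested Ly6 genes 5 had a lower mean in each mutant genotype than in Nras+/+. Of 14 tested HSC surface genes outside the 10 markers, 10 were lower in NrasG12D/G12D and 11 in NrasG12D/+, and Cd82, a tetraspanin, gave -2.53 (SE 1.11, adjusted p = 0.727) and -2.87 (SE 1.11, adjusted p = 0.813). The scaled signals of Cd82 in the controls lay far apart, at 2.3 in Nras+/+ replicate 1 and -1.72 in replicate 2. All mutant arrays lay between -3.04 and -1.99, near replicate 2. Of 13 tested antigens of mature lineages, 7 were lower in NrasG12D/G12D and 9 in NrasG12D/+, and Cd3e gave -2.51 (SE 1.11, adjusted p = 0.813) in NrasG12D/+. Their part in the marker values was not tested.

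The genes whose scaled signal most resembled each marker over the 8 arrays were sought among 5637 genes detected throughout. They were Utrn (Pearson r 0.964) and Sppl2c (0.959) for Ly6a, Zfp36l3 (0.925) and Ptk7 (0.918) for Slamf1, and Pabpc6 (0.957) and Kash5 (0.947) for Pdzk1ip1. With 8 arrays, such values arise among many genes: 67 genes had an r over 0.9 with Ly6a, 280 with Esam, 12 with Pdzk1ip1 and 3 with Slamf1.

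Nras itself was read by 3 probes, of which 1 was detected, on 5 arrays. Its processed signals were 12, 8.25 and 10.4 in NrasG12D/G12D, 22.5, 27.4 and 18.7 in NrasG12D/+, and 27.7 and 25.3 in Nras+/+. No NrasG12D/G12D array was well above background. With signals under an array's lowest detected signal raised to it, the NrasG12D/G12D mean was 3.11-fold lower than that of Nras+/+ at this scaling. That ratio leaves out the spread between arrays and is not a minimum. The limma log2 change was -1.79 (SE 0.71, 95% interval -3.39 to -0.19, adjusted p = 0.727). The size depended on the processing: the change was -0.55 with normexp background correction, -1.16 in the value table, -1.3 with the percentile over all probes and -2.65 with the slide as a block, and these genotypes share no slide. The probe does not tell the mutant from the normal allele, so it is no check of the genotype labels.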

How the data were processed

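The members and gene lists were chosen with earlier results of these data known. Per the file headers, the scanner files come from Agilent Feature Extraction 10.5.1.1, which the submitters' processing notes also name. The deposited processed signal is an intensity on a linear scale, background-subtracted and detrended within each array per the file headers; the deposited mean signal and background are uncorrected intensities. The deposited value table holds a ratio, equal to the processed signal over the array median (largest relative deviation 1.7e-06), and each column has a median of 1. Detection and outlier flags are 0 or 1, per the file headers.

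Values of outlier-flagged spots, between 120 and 464 on an array, were left out, log2 signals were averaged per probe and scaled to the 75th percentile of the 6579 probes detected on all arrays. The brightest probe of a gene was tested with limma 3.58.1 in R 4.3.3 (1 spread for 3 groups, two-sided), checked on simulated data. Precision is limited by how few arrays there are: the median SE of a log2 change was 0.97, 0.87 and 0.96 for NrasG12D/G12D against Nras+/+, NrasG12D/G12D against NrasG12D/+ and NrasG12D/+ against Nras+/+.

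Detection followed the deposited flag, as the design states. During the work this definition was changed to leave out spots with an outlier flag and then changed back, both with marker values in view and with the earlier results for comparison; both versions are reported. The genes named were the markers, Nras, and by rule the brightest and lowest-p genes of each list and the 2 genes most like each marker; other listed genes, named for their detection, were chosen after their values were seen. Some listed genes are not reported here by name, though counts include them. Alternatives were background correction, normalization, filters, slide and replicate blocks, the value table and leaving out each array.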

Additional observations from a re-analysis of the deposited data

Results flagged for a closer look

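Kit and the downstream Slamf1 probe were not among the genes tested, and each was detected on 1 array only. In a fit of all 41174 probes without a filter, the change of NrasG12D/+ against Nras+/+ was 0.67 (SE 0.96, limma adjusted p = 0.856) for Kit and 0.54 (SE 0.66, adjusted p = 0.856) for this Slamf1 probe. On NrasG12D/+ replicate 1 the scaled log2 signal of Kit was -3.34, where the Nras+/+ arrays stood at -6.33 and -5.6 and were not well above background. The downstream Slamf1 probe stood at -4.56 on the same array, against -5.88 and -5.82 in Nras+/+. The same array had the most probes detected alone (1342) and correlated least with the rest (mean 0.557), and the part of these in either signal was not tested.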

How the results depend on the processing

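Of 410 recomputed marker changes, 374 kept their sign and none passed the threshold (lowest limma adjusted p = 0.557), while 36 turned their sign, 13 of them when an array was left out. Of the 36, 9 came from the percentile over all probes or from the value table, which shift all genes of an array alike. Such a shift moves the median of all genes as well. That 0 of those 9 turned relative to this median therefore follows from the scaling and says nothing about stability. Relative to that median, 40 of the 410 turned over all alternatives. Ly6a, Cd48, Esam, Pdzk1ip1 and Fgd5 stayed lower in NrasG12D/+ than in Nras+/+ under every alternative run, Ly6a between -2.6 and -1.81. The smallest of these changes was -0.1 for Fgd5 without Nras+/+ replicate 2. The median of all genes was lower there, at -0.16. Sizes varied more in NrasG12D/G12D minus Nras+/+, with Ly6a from -2.1 to -0.7, Cd48 from -2.61 to -0.51 and Pdzk1ip1 from -2.46 to -0.48. The causes were not tested.

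In NrasG12D/G12D minus Nras+/+, Fgd5 became 0.53 with outlier spots kept, 0.29 with quantile normalization, 0.55 with every probe in the scaling percentile and 0.76 in the value table. Slamf1 became 0.05 and Esam 0.09 with all probes, and 0.2 and 0.23 in the value table, while relative to all genes they stayed at 0.01 and 0.04 with all probes, and at 0 and 0.04 in the value table. Cd34 became -0.18 with normexp and -1.44 with the slide as a block. In NrasG12D/G12D minus NrasG12D/+, Cd48 became 0.12 with normexp, 0.13 with quantile normalization, 0.16 with all probes and 0.28 in the value table, where Pdzk1ip1 became 0.12. Relative to all genes, Cd48 stayed at 0.03 in the last 2 settings and Pdzk1ip1 at -0.14 in the value table. The slide block and the fit within slide 2 gave the same -0.43 for Slamf1, -0.17 for Esam, -0.18 for Cd34 and -0.49 for Fgd5.

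Leaving out an array moved Slamf1 between -1.76 and 0.89 (NrasG12D/G12D minus Nras+/+), -0.31 and 0.49 (NrasG12D/G12D minus NrasG12D/+) and -1.86 and 0.78 (NrasG12D/+ minus Nras+/+). In NrasG12D/G12D minus Nras+/+, Fgd5 ran from -0.5 to 0.47 and Cd34 from 0 to 1.4. Cd48 ran from -0.7 to 0.53 and Pdzk1ip1 from -0.98 to 0.12 in NrasG12D/G12D minus NrasG12D/+, and Cd34 from -1.26 to 0.15 in NrasG12D/+ minus Nras+/+.

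The count of genes past the threshold, 0 in each comparison, was 1 for NrasG12D/G12D minus Nras+/+ with quantile normalization, no filter or the slide block, 4 for NrasG12D/G12D minus NrasG12D/+ with the slide block, and 1 for NrasG12D/+ minus Nras+/+ with quantile normalization, all probes, the value table or no filter. Without 1 array the counts ran from 0 to 9, 0 to 2 and 0 to 10 in the same order, highest for both control comparisons without Nras+/+ replicate 2. No marker was among the genes past the threshold.

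The detection rule was chosen with values seen. Leaving outlier spots out of detection gave 6191 probes on all arrays in place of 6579 and 15077 genes tested in place of 15099, put Fgd5 at 7 arrays in place of 8, moved no tested change by more than 0.04 and left all counts at 0. This alternative and outlier spots kept were added after seeing the data.

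After the mean of each genotype was subtracted from every gene, 0 of 7 same-number pairs of arrays had a correlation over 0.1. Pairs with different numbers were not correlated for comparison, so whether replicate numbers pair the samples is not shown. With the replicate block the Ly6a change was -1.28 for NrasG12D/G12D and -2.27 for NrasG12D/+, each minus Nras+/+, and the counts remained 0. Signal over background limits Kit, Procr, Tek and Cd34 most.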
